A study of Mus musculus with 16 samples.

Results

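Of the 6 Eμ-xbp-1s multiple myeloma (MM) samples of the series, 2 carried high signal of erythroid genes, and they are compared here with the other 4. The 2 samples, MM replicates 4 and 5, were selected on the intensity of Alas2, the enzyme that starts heme synthesis in red cell precursors. Arrays with Alas2 above 1000 were called erythroid-rich and those below 1000, replicates 1, 2, 3 and 6, were called the other MM arrays. The value just inside the threshold was 6037 and the value just outside was 92.0, so thresholds of 200 or 5000 choose the same 2 arrays. Because the arrays were divided by their own values, every difference below is a description and no test was made. The series holds 16 arrays in all, with 5 of nontransgenic B cells, 5 of Eμ-xbp-1s B cells and 6 of MM.

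The Eμ-xbp-1s mice carry the mouse spliced xbp-1 cDNA behind an immunoglobulin VH promoter and the Eμ enhancer, joined through an internal ribosome entry site to a membrane-bound eGFP, on a C57BL/6 background, from the founder lines S.7 and S.9. The transgene is active through B cell development and in some T cells, so it is not limited to plasma cells. The B cells were spleen cells taken with magnetic beads against B220, a surface marker of B cells, from mice of 20 weeks. For the MM samples the sources give total RNA of myeloma tumors from transgenic mice, with no sort named, and neither the tissue nor the age of each sample. Nothing says which founder line a sample came from or that the 6 came from separate mice.

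Erythroid precursors make hemoglobin, for which they build heme in steps divided between mitochondria and cytosol, import iron through the transferrin receptor, and lay down a membrane skeleton that only red cells carry in that form. Neutrophil precursors fill granules in order, the primary ones with proteases and myeloperoxidase and the secondary ones with lactoferrin and cathelicidin, and megakaryocytes make platelets with their own granule chemokines. In the mouse these lineages develop in the bone marrow and also in the red pulp of the spleen. Plasma cells, the cells that become malignant in myeloma, have shut down most of the B cell surface program and secrete immunoglobulin.

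The 3 genes used as markers separated the arrays in different ways. Alas2 was at 6037 and 6599 on the erythroid-rich arrays, MM replicates 4 and 5 in this order throughout, and at 16.3, 31.0, 92.0 and 28.6 on the other MM arrays, replicates 1, 2, 3 and 6 in this order throughout. It was at 16.5 to 81.3 in nontransgenic B cells, and at 329 to 559 on the Eμ-xbp-1s B cell arrays other than replicate 3, which reached 4045. S100a8, a calcium-binding protein of neutrophils, was at 12588 and 12292 on the erythroid-rich arrays and at 414, 416, 31.2 and 444 on the others, so the same 2 arrays were also the highest in a neutrophil gene that the selection did not use. Cd3d, one of the signalling chains of the T cell receptor, was at 54.5 and 45.3 against 566, 755, 866 and 33.1: low on the erythroid-rich arrays and on replicate 6, and high on replicates 1 to 3. The groups therefore overlapped in Cd3d. The label erythroid-rich fits the red cell genes described below, and the 2 arrays were also far above the others in many neutrophil and platelet genes, which the label leaves out.

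**Figure D1:**
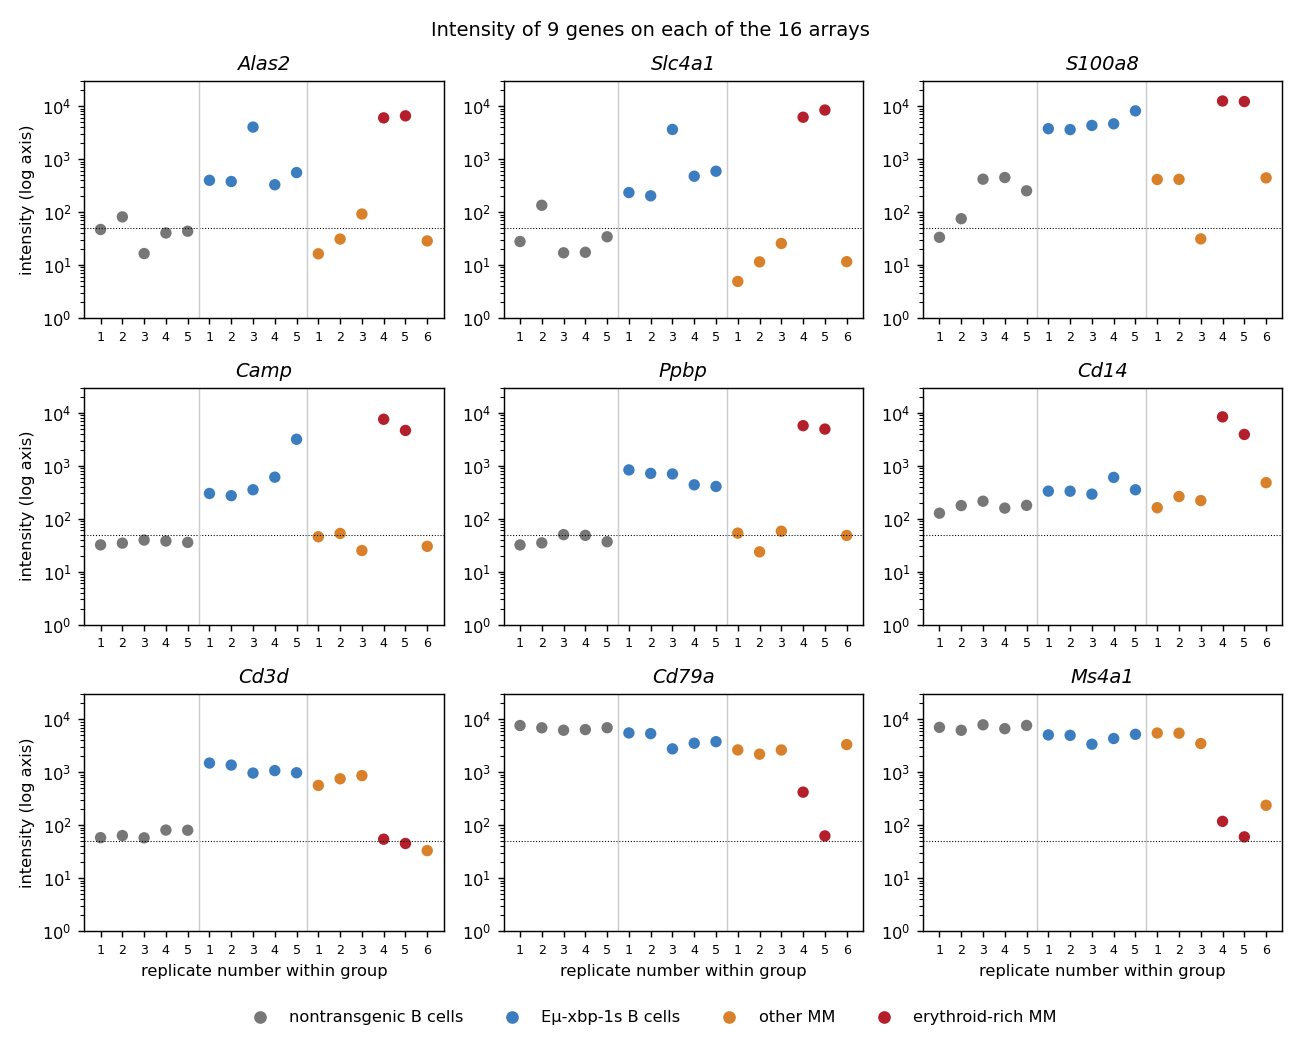
Intensity of 9 genes on each array, on a log axis, with 1 point per array, and the floor of 50 as a dotted line. MM replicates 4 and 5 (red) lie far above the other MM arrays in Alas2, Slc4a1, S100a8, Camp, Ppbp and Cd14 and below them in Cd79a and Ms4a1, while in Cd3d replicate 6 lies lower still, at 33.1.

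The values are intensities on the authors' linear dChip scale, whose highest value is 13035. For comparison, values under 50 were set to 50 and a difference is the mean log2 intensity of the 2 arrays minus that of the 4. A probe set was called higher or lower when the 2 groups did not overlap and the difference was at least 2, which is 4-fold. A gene is its brightest probe set over the 16 arrays, and a fold is the ratio of the geometric means, written "at least" where any array on the low side lay at or under 50. Of 22151 probe sets above 100 on at least 2 of the 6 MM arrays, 485 (2.19%) were called higher on the erythroid-rich arrays and 180 (0.813%) lower. Counted by gene, 284 of 11318 (2.51%) were higher and 97 (0.857%) lower. These shares are the background for every list below, and since the same contrast chose the arrays, nothing is read from them beyond the size of each group. No overlap alone, at any size of difference, was far more common. Of the 22151 probe sets, 2738 had both erythroid-rich arrays above all 4 others and 4451 had both below. The filter itself favours calls: a gene that is low on one side passes through the other. Of the 11318 genes kept, 706 had fewer than 2 of the 4 other arrays above 100 and passed only with the help of the erythroid-rich arrays, and 128 of these were called higher. A further 1117 had neither erythroid-rich array above 100. Counts in the lists are of the genes kept and not of all members. The median difference was -0.17 over all probe sets and -0.13 over all genes.

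The largest differences upward were those of Slc4a1, Camp, Alas2, Ppbp, Tmcc2, Car2, Ltf, S100a9, Rhag, Ermap, S100a8, Blvrb, Lcn2, Retnla and Ngp, from 7.18 down to 5.49 on the log2 scale. By the lists used here, 6 of these 15, counting Alas2 itself, are red cell genes, 6 are neutrophil genes and 1, Ppbp, is a platelet gene. Tmcc2, which no list holds, was at 7269 and 8916 against 109, 109, 102 and 68.9, 84.2-fold higher. Retnla, a secreted resistin-like protein, was at 2661 and 2596 against 34.8, 37.0, 76.2 and 56.0. The largest differences downward were smaller, from -4.73 to -3.33, in the order Ms4a1, Cd79b, Cxcl9, Cd79a, Dcn, Sesn3, Ltb, H2-Ob, Psmb8, Klhl6, Ablim1, Hmgn3, Pik3ap1, Jakmip1 and Lmo7. Of the 485 probe sets called higher, 418 were also above all 10 B cell arrays on both erythroid-rich arrays, and 68 had all 4 other MM arrays at or under the floor. Of the 180 called lower, 138 were below all 10 B cell arrays, and 36 had both erythroid-rich arrays at or under the floor. The shares of all probe sets kept that lay above or below all 10 B cell arrays were not counted.

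The 2 arrays resembled each other more than any other MM array. Over the 22151 probe sets, replicates 4 and 5 had a Pearson correlation of log2 intensities of 0.919, replicates 1 to 3 had 0.936 to 0.961 with each other, and replicate 4 had 0.746 to 0.757 and replicate 5 0.669 to 0.683 with those 3. Replicate 6 was like neither side, with 0.705 to 0.744 against the other 5 arrays. The 4 other MM arrays were thus 3 similar arrays and 1 apart. Replicate 6 was the lowest of the 4 in 133 of the 180 probe sets called lower and the highest in 27. The share over all probe sets kept was not counted, here or for the gene lists below. These counts are therefore not read as particular to the genes called. In lists with few or no calls, replicate 6 was the lowest in 15 of 24 matrix genes, 12 of 18 endothelial genes and 5 of 11 bone and marrow niche genes. With the same 22151 probe sets, 562 were called lower without replicate 6 and 421 without replicate 4. The count of those called higher was 457 to 608 with any 1 of the 6 left out. Leaving an array out also makes it easier for groups not to overlap.

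**Figure D2:**
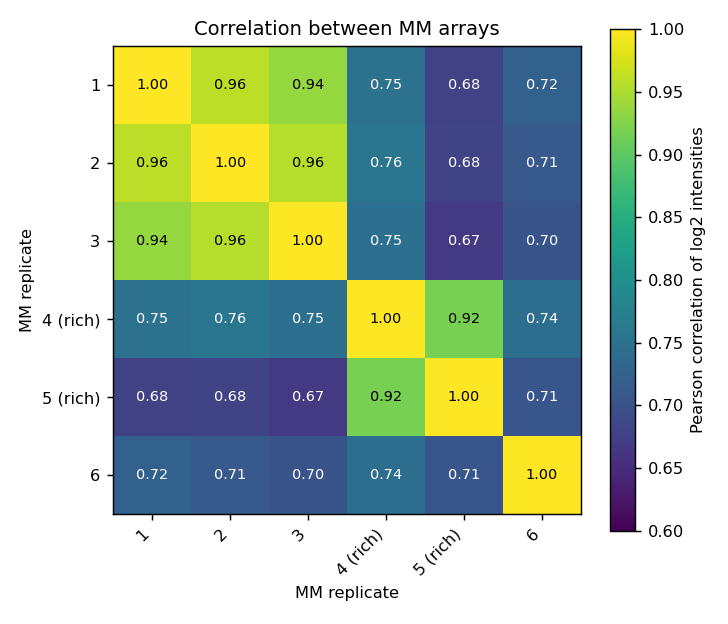
Pearson correlation of log2 intensities between the 6 MM arrays over 22151 probe sets, with the erythroid-rich arrays marked (rich). Replicates 1 to 3 form a block of 0.936 or more, replicates 4 and 5 a pair at 0.919, and replicate 6 lies at 0.705 to 0.744 with all others.

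Median intensity was 73.0 and 69.3 on the erythroid-rich arrays and 77.4 to 82.9 on the others. The 3' to 5' ratio of Gapdh control probe sets, which rises when RNA is degraded or shortened in labelling, was 1.28 and 1.499 on the erythroid-rich arrays, 0.931, 0.970 and 1.03 on replicates 1 to 3 and 1.39 on replicate 6. The same ratio for actin was 1.19 and 1.42 against 1.07, 1.12, 1.28 and 1.59. The part of these ratios in the differences was not tested. In bulk RNA, fewer cells of a type and less RNA per cell cannot be told apart, and every level below is that of a whole sample.

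Heme synthesis and iron uptake was called higher in 11 of 15 genes kept, with a median difference of 2.92, and in none lower. The list holds 17 genes, of which 2 passed the filter only with the help of the 2 arrays. Alas2, which chose the arrays, is one of them, and without it 10 of 14 were called and the median was 2.80. All 15 differences were positive, and both erythroid-rich arrays stood above all 10 B cell arrays in all 15. The share over all genes was not counted, here or for the matrix genes below. The same held in 22 of 23 genes of G2 and mitosis, 14 of 18 endothelial genes and 1 of 11 bone and marrow niche genes. It is therefore not particular to erythroid genes. Along the pathway after Alas2, Alad, which joins the first intermediates, was at 994 and 2255 against 263, 256, 274 and 82.4. Uros, which closes the porphyrin ring, was at 753 and 2160.2 against 126, 119.9, 125 and 123, and Urod, the decarboxylase after it, at 1537 and 2948 against 202, 227, 237 and 123. In these 3 steps the lower of the 2 arrays stood more than 3-fold above the highest of the 4.

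The last steps, back in the mitochondrion, were higher on both arrays too. Cpox was at 4009.6 and 5542 against 190.0, 316, 286 and 120.3, a 22.1-fold difference. Ppox was at 719 and 1532 against 164, 163, 225 and 124, and Fech, which puts iron into the ring, at 4163 and 7392 against 322, 381, 417 and 339.6. The arrays did not overlap in any of the 3. For iron, Slc25a37, the mitochondrial iron importer mitoferrin, was at 4665 and 5766 against 149.7, 196, 374 and 206, and Tfrc, the transferrin receptor that brings iron into the cell, at 6518 and 8604 against 1190.3, 1277, 1399.7 and 2068. Slc25a37 was higher in nontransgenic B cells (581 to 1191) than on any of the 4 other MM arrays. Abcb10, a transporter of the inner mitochondrial membrane, was 9.63-fold higher and Abcb6, a porphyrin transporter, at least 5.38-fold higher. Tmem14c, Slc25a38, Tfr2 and Slc11a2 were not called, with differences of 1.67, 1.58, 1.02 and 0.27.

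Red cell membrane genes were called higher in 12 of 15 kept of 19 listed, with a median difference of 3.58, and 9 of the 15 passed the filter only with the help of the 2 arrays. Slc4a1, the anion exchanger band 3 and the most abundant protein of the red cell membrane, had the largest difference of all named genes: 6214 and 8486 against 4.90, 11.5, 25.6 and 11.6, at least 145-fold higher. Rhag, which carries the Rh complex, was at 2428 and 4403 against 42.4, 42.4, 32.1 and 92.2. Rhd, its Rh partner, was at 1577 and 2698 against 48.6, 58.7, 47.1 and 51.4. On the 4 other MM arrays all 3 were at 92.2 or less, and their folds are lower bounds.

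Blood group and water channel genes followed the same order. Kel, the Kell glycoprotein, was at 1618 and 3226 against 38.9, 50.3, 37.9 and 54.8, and Ermap, the Scianna antigen, at 2121 and 5301 against 72.5, 52.3, 46.4 and 75.5. Aqp1, the water channel, was at 3890.4 and 5594 against 555, 193, 414 and 91.5, with replicates 1 to 3 above nontransgenic B cells (32.4 to 91.8). The skeleton genes Epb42 (protein 4.2), Tmod1 (tropomodulin) and Dmtn (dematin) were at least 8.88-fold, at least 12.0-fold and 14.4-fold higher. Ank1, the ankyrin that ties band 3 to spectrin, was at 735 and 1830.2 against 158, 129, 180.1 and 165. Gypc, glycophorin C, was 8.06-fold higher and Icam4, an adhesion molecule of red cells, at least 8.54-fold. Sptb, Add2 and Cd59a were not called, at 0.29, 0.14 and 1.47.

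Erythroid regulators were called higher in 8 of 13 kept of 14 listed, with a median difference of 2.90, and 5 of the 13 passed the filter only with the help of the 2 arrays. Klf1, the factor that switches on adult globin and other red cell genes, was at 1009 and 2919 against 23.2, 23.9, 19.1 and 50.4. Tal1 and Nfe2, which act in erythroid and megakaryocytic cells alike, were at 1030.3 and 1694 and 1306 and 2148, and on no other MM array did either pass 23.9. Epor, the erythropoietin receptor, was at 653 and 1287 against 70.8, 59.1, 76.5 and 58.5. The arrays did not overlap in any of these 4 genes. Hemgn, a nuclear protein of blood precursors, was at 4024 and 6926 against 159, 183, 293 and 39.3. Sox6 was at least 13.0-fold higher, E2f2 7.45-fold and Zfpm1, the partner of GATA factors known as FOG1, 5.66-fold. Gata1 stopped just under the threshold of 2: it was at 687 and 1485 against 282, 238, 272 and 254, a difference of 1.95 with no overlap. Bcl11a, which represses fetal globin and is also a B cell factor, was at 121 and 147 against 227, 252, 409 and 137, and Lmo2, Ldb1 and Cited2 were not called either, at 1.17, -0.49 and -1.01.

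The promoters of 4 genes called higher on these arrays are shown. They were taken from RefSeq on GRCm38.p6 as 300 bases from 250 before to 50 after the annotated start, on the strand of the gene. All 4 hold the letters marked, which most called genes of the erythroid and neutrophil lists with a window do not. In the first 3, the genes Alas2, Klf1 and Rhag, capitals mark AGATAA or TGATAA, the letters GATA factors bind, on either strand. In Ngp, the neutrophil granule gene described below, capitals mark TTGCNNAA, letters that C/EBP factors bind, on either strand. They lie at chrX:150547167-150547466, chr8:84901732-84902031, chr17:40810899-40811198 and chr9:110419558-110419857, all on the plus strand.
Alas2: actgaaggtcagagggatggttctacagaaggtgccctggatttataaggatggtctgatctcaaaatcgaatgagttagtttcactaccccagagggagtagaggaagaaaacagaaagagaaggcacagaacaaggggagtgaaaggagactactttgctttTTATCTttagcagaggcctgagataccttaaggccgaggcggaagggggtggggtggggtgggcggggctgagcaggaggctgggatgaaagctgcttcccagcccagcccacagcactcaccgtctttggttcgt
Klf1: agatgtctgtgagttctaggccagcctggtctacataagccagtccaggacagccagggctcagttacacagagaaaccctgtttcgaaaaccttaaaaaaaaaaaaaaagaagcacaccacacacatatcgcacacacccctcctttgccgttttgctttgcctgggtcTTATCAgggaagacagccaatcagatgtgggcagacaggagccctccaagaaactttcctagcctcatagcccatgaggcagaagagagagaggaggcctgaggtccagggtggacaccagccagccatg
Rhag: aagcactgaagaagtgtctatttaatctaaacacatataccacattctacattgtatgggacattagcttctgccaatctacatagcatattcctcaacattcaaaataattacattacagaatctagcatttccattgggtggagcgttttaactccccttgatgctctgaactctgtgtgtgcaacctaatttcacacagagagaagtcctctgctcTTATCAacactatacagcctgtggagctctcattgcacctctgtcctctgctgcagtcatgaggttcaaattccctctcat
Ngp: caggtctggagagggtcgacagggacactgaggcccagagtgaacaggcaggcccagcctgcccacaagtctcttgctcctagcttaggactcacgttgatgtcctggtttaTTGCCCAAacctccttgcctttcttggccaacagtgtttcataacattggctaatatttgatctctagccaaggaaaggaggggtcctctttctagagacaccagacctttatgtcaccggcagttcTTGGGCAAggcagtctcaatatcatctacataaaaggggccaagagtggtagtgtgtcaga
The GATA letters begin at -86 in Alas2, -80 in Klf1 and -31 in Rhag, counted with the start as 0. Of the 45 genes of the 4 erythroid lists that were called higher, 34 had a window, and 15 of these (44.1%) held the GATA letters, against 5664 of 27025 genes with a window (21.0%). Without Alas2 these were 14 of 33 (42.4%). A gene with several windows counts if any of them holds the letters. Over all 231 genes called higher with a window the share was 23.4%, near that of all genes. The letters CCACACCC, to which KLF factors bind, were in 1 of the 34 (2.94%) and in 4.09% of all. Of 20 genes called higher in the neutrophil lists, 7 (35.0%) held TTGCNNAA on either strand, against 12.2% of all. Of 8 mature B cell genes called lower, 1 held the octamer ATTTGCAT, against 1.97% of all. The motifs do not contain one another, a match is a description of letters, and no match says nothing of a factor.

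Genes of late maturation and red cell enzymes were called higher in 14 of 17 kept of 20 listed, with a median difference of 3.78, and 8 of the 17 passed the filter only with the help of the 2 arrays. Car2, the main fast carbonic anhydrase of red cells, was at 8199.9 and 9153 against 95.3, 82.8, 53.4 and 679.7, with replicate 6 the highest of the 4. Car1, the more abundant but slower form, was at 1007 and 1470.2 against 115, 92.7, 83.5 and 37.9. Blvrb, a flavin and biliverdin reductase of red cells, was at 2119 and 4803 against 35.6, 75.0, 76.6 and 57.6, although both kinds of B cells had more of it (404 to 657 in nontransgenic) than the 4 other MM arrays. Both erythroid-rich arrays were still above every B cell array.

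Several genes of this list act in the removal of proteins and organelles. Trim10, a ubiquitin ligase of erythroid cells, was at 1268 and 2780.2 against 49.0, 49.4, 47.3 and 70.3, and Ube2o, which marks ribosomal and other proteins for removal in reticulocytes, at 911 and 1376 against 69.5, 89.2, 111 and 61.2. Xpo7, a nuclear exporter of maturing erythroblasts, was 9.24-fold higher, Gclm, of glutathione synthesis, 21.5-fold, and Prdx2, an abundant peroxide scavenger of red cells, 7.48-fold. Ypel4, Tspo2 and Slc38a5 were at least 19.8-fold, at least 13.96-fold and at least 13.7-fold higher, and Foxo3, Mkrn1 and Marchf8 5.49-fold, 4.85-fold and 5.63-fold. Cat, Pklr and Bpgm were not called. Bpgm, which makes the 2,3-bisphosphoglycerate of red cells, was the exception in the order of the arrays, at 2772 and 2124 against 719.9, 642, 587 and 741, a difference of 1.86 with replicate 4 above replicate 5.

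Of the globins, only probe sets annotated to a single gene were named. Those kept were Hba-a2, at 75.9 and 112 against 71.7, 30.6, 40.5 and 123, and Hbb-b2, at 144 and 197 against 302, 183, 929 and 261. Both overlapped between the groups. The other kept probe set of Hbb-b2, which is less bright over the 16 arrays and of a design that may bind several transcripts, was called higher, at 2991 and 3945 against 6.15, 3.12, 15.4 and 15.97. The probe sets of Hbb-b2 thus disagree, and the median of the list was -0.29 from the brightest probe sets and 1.49 from averages over the kept ones, so no direction is given for it. The other adult globin genes and Ahsp have no probe set that names them alone here and were not analysed.

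Among B cell arrays, Eμ-xbp-1s replicate 3 was the highest of its 5 in 10 of 15 heme, 11 of 15 membrane and 15 of 17 late genes. It was so in 6 of 13 regulators and in neither of the brightest globin probe sets, for which no direction was given above. Outside these lists it was the highest in 9 of 18 endothelial and 8 of 16 platelet genes. The counts were 0 of 21 for mature B cell genes and 1 of 16 for late neutrophil genes. The share over all genes was not counted. The Gapdh ratio was 2.41 on replicate 3 and 1.97 on replicate 4. The part of this ratio in the erythroid signal was not tested. Slc4a1 was at 3654 on replicate 3, and at most 593 on the other 4. In nontransgenic B cells Slc4a1 ran from 17.0 to 135. Erythroid signal of this kind was therefore not limited to MM samples, but none of the 10 B cell arrays reached either erythroid-rich MM array in Slc4a1 or Alas2.

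Neutrophil genes were also called higher on these 2 arrays. Of 6 primary granule genes 5 were called higher (median difference 4.05), of 9 secondary granule genes 8 (median 5.08), and of 16 late granule and mature neutrophil genes 9 (median 2.35), with none lower. The lists hold 8, 10 and 25 genes, and 4 genes of each passed the filter only with the help of the 2 arrays. Mpo, myeloperoxidase, was at 5903 and 3049 against 212, 173, 159.7 and 312. Elane, neutrophil elastase, was at 2067 and 629 against 29.6, 52.1, 35.6 and 33.4, and Prtn3, proteinase 3, at 3345 and 949.5 against 36.4, 26.0, 12.9 and 39.8. Ctsg, cathepsin G, and Ms4a3, a membrane protein of granulocyte precursors, were 13.4-fold and 8.76-fold higher. Fcnb, a ficolin, was at 572 and 259 against 145, 128, 154 and 179, without overlap but under the threshold. Primary granule genes are those of promyelocytes, the stage before granules of the other kinds.

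Secondary granule genes were higher still. Camp, the cathelicidin, was at 7565 and 4649 against 45.6, 52.6, 25.0 and 30.0, at least 117-fold higher. Ngp, whose promoter is printed above, was at 11824 and 9847 against 276, 309.7, 205 and 188, and Ltf, lactoferrin, at 7640.1 and 3145 against 94.4, 95.5, 57.6 and 82.7. In each of the 3, replicate 4 was above replicate 5. Lcn2, which binds bacterial siderophores, was at 7633 and 2174 against 101, 170.4, 65.7 and 49.5. Chil3, a chitinase-like protein that macrophages also make, was at 8005 and 5216 against 106, 881, 494 and 113, with all 4 others above nontransgenic B cells (9.63 to 36.9). Mmp8, the neutrophil collagenase, was at least 33.7-fold higher, Cd177, a surface marker of neutrophils, at least 15.1-fold, and Hp, haptoglobin, 6.47-fold, though without replicate 4 the difference of Hp was under the threshold, at 1.88. Cybb, the oxidase subunit shared with macrophages and B cells, was the one not called, at 2769 and 788 against 1469, 2124, 2177 and 948.

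S100a9, the partner of S100a8, was at 12964 and 12029 against 307, 415, 58.6 and 258. S100a8 and S100a9 stood near the top of the scale of 13035 on the erythroid-rich arrays, so their folds, at least 50.05-fold and 59.6-fold, may be compressed. They were also high in Eμ-xbp-1s B cells, S100a8 at 3627 to 8189.9. Of the genes of mature neutrophils, Cxcr2, the chemokine receptor by which neutrophils leave the marrow, was at 439 and 240.2 against 13.5, 29.1, 22.7 and 19.8, Wfdc21 at least 35.2-fold higher, Lrg1 at least 8.63-fold, Pglyrp1, which binds bacterial walls, 6.65-fold, and Clec4d, a lectin receptor, at least 5.61-fold. Anxa1, annexin A1, was called by a thin margin, at 5266 and 1616 against 442, 386, 375 and 1610.2. Without replicate 4 Anxa1 was at 1.51 and Pglyrp1 at 1.87, both under the threshold. Csf3r, Il1b and Mmp9 were not called, at 0.14, 0.50 and 1.04.

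Megakaryocyte and platelet genes were called higher in 11 of 16 kept of 19 listed, with a median difference of 2.68, and all 16 differences were positive. Of the 16, 9 passed the filter only with the help of the 2 arrays. Ppbp, a chemokine of platelet granules, was at 5726 and 4931 against 53.4, 23.6, 58.0 and 48.2. Pf4, platelet factor 4, was at 7039 and 5487 against 154, 128, 145 and 653, with replicate 6 above the other 3. Tubb1, the platelet tubulin, was at 1163 and 1197 against 63.7, 49.7, 53.6 and 72.3. The 2 erythroid-rich arrays were close to each other in all 3 and far above the rest. Itga2b and Itgb3, the subunits of the fibrinogen receptor, were 6.17-fold and at least 6.81-fold higher, Gp9, of the receptor for von Willebrand factor, at least 5.82-fold, and Vwf itself, which endothelium also makes, at least 7.62-fold. Alox12, the platelet lipoxygenase, was at least 11.03-fold higher, Clec1b 7.76-fold, Selp, P-selectin, 6.64-fold, and Treml1 4.57-fold. Gp1bb, Gp5, F2rl2, Rab27b and Mmrn1 were not called, with differences from 0.18 to 1.28.

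**Figure D3:**
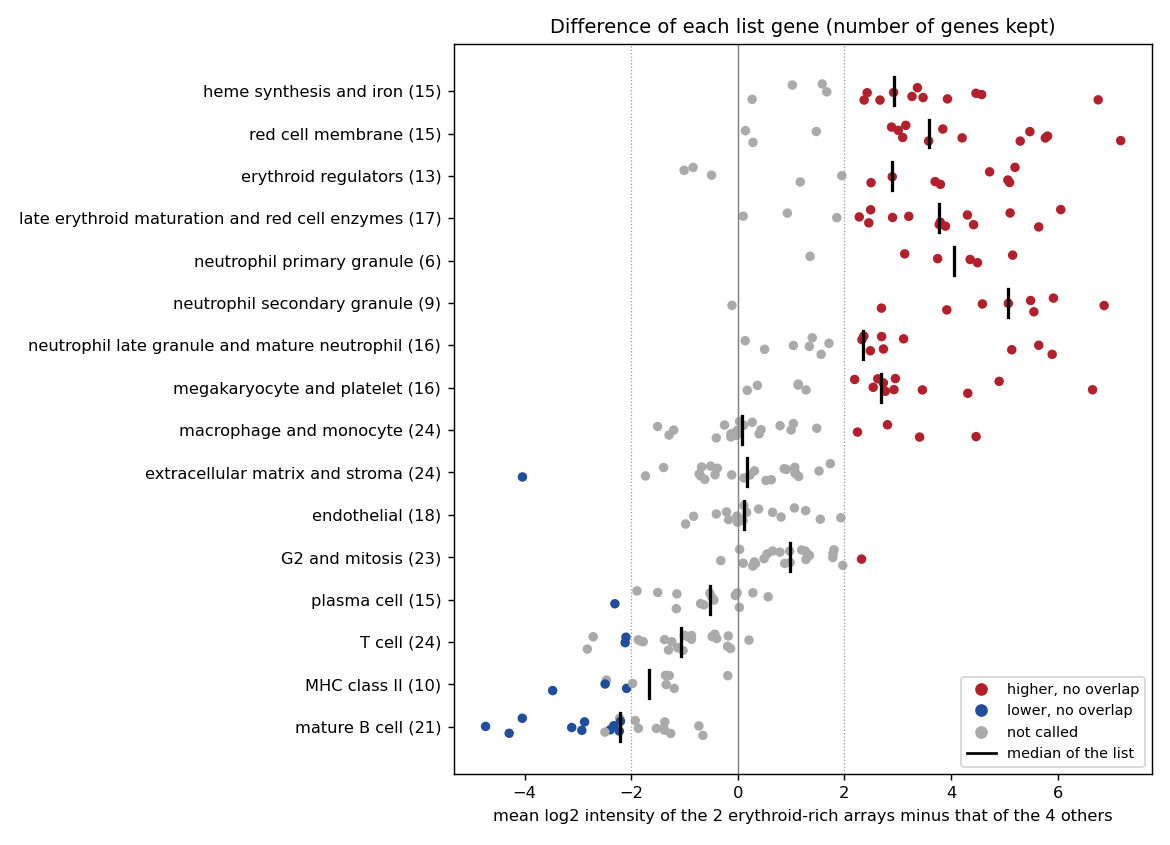
Difference of each gene kept in 16 lists, as mean log2 intensity of the erythroid-rich MM arrays minus that of the 4 others, with the call by colour, the list median as a bar and dotted lines at -2 and 2. The 4 erythroid, 3 neutrophil and 1 platelet lists have medians from 2.35 to 5.08, while those of macrophages, stroma and endothelium lie near 0 and those of T cells, MHC class II and mature B cells between -1.07 and -2.22.

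Macrophage and monocyte genes did not move as a list. Of 24, 4 were called higher, and the median difference was 0.072, with 13 positive and 11 negative. It was -0.36 without replicate 4 and -0.20 without replicate 6. Of the 24, 2 passed the filter only with the help of the 2 erythroid-rich arrays, and 1 of these, Slc40a1, was called higher. Cd14, the receptor for bacterial lipopolysaccharide, was at 8392 and 3907 against 161, 262, 219.8 and 479, and Mrc1, the mannose receptor, at 2312 and 637 against 90.7, 123, 261 and 309. Slc40a1, the iron exporter ferroportin, was at 767 and 570.4 against 69.6, 62.9, 37.5 and 68.4, and B cell arrays had more of it (543 to 1198 in nontransgenic) than the 4 other MM arrays. Cd5l, a secreted protein of tissue macrophages, was at 866 and 929 against 343, 269, 188 and 73.8. Mrc1 was under the threshold without replicate 4, at 1.88, and Cd5l without replicate 6, at 1.79. The defining complement genes overlapped between the groups, with C1qa at 5420.1 and 624 against 3960.1, 4106, 3432 and 625, and so did Csf1r, the receptor for macrophage colony-stimulating factor, at 4956 and 2277 against 3494, 3790.1, 4633 and 977. The summed intensity of the list ran from 18051 to 59740.5 on the erythroid-rich arrays and from 17312 to 43331 on the others.

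Other myeloid genes were few. Of 15 genes of eosinophils, basophils and mast cells 4 were kept, 3 of them only with the help of the 2 arrays. Hdc, which makes histamine, was called at 770.0 and 484 against 1.00, 10.003, 3.69 and 1.71, and Prg2, the eosinophil major basic protein, at 629 and 370.0 against 105, 67.0, 79.7 and 27.6. Of 8 myeloid transcription factors, Cebpb was called higher, at 1673 and 1387 against 287, 498, 522 and 128 (1.86 without replicate 6), and Irf8, which favours monocytes and dendritic cells over granulocytes and is also high in B cells, was called lower, at 403 and 172 against 2595, 3475, 2576 and 762. Spi1 (PU.1) was at 751 and 269.6 against 458, 579.7, 507 and 328 and overlapped. None of 5 dendritic cell genes was called (median -0.64, and 0.12 without replicate 5), nor any of 8 stem and progenitor genes (median 0.0057), where Kit was at 164 and 163 against 232, 155, 101 and 31.4.

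Mature B cell genes had the largest share called lower among the 30 lists made before the other 4, 10 of 21 kept of 24 listed. The 30 lists were themselves chosen with earlier results of these data known. The median difference of the mature B cell genes was -2.22, and all 21 differences were negative. Of the 21, 5 had neither erythroid-rich array above 100. Ms4a1, which encodes CD20, was at 118 and 60.3 on the erythroid-rich arrays and at 5531, 5485, 3497 and 238 on the others, 26.5-fold lower, with replicate 6 close to the erythroid-rich level and the other 3 within the range of Eμ-xbp-1s B cells (3397 to 5227) or just above it. Cd79b and Cd79a, the signalling chains of the B cell receptor, were at 148 and 37.8 against 1672, 1249, 2163 and 1757 and at 422 and 62.8 against 2649, 2202, 2644 and 3346. In these 2 genes replicate 6 was as high as the rest. Ebf1, an early B lineage factor, was at 29.4 and 18.02 against 317, 222, 319 and 922, and 2 of its 4 kept probe sets carried the call. Pou2af1, the B cell coactivator of octamer factors, was at 1489 and 75.7 against 4314, 3838, 2797 and 1547: replicate 4 was just under the lowest of the others and replicate 5 far under it. Blnk, an adaptor below the B cell receptor, was at 770.0 and 154 against 1832, 1735, 1944 and 1446, a 5.01-fold difference. Both calls rest on replicate 5: without it the difference was -0.97 for Pou2af1 and -1.17 for Blnk. Cd37, Tnfrsf13c (the BAFF receptor), Spib and Bach2 were at least 7.33-fold, 5.25-fold, 4.60-fold and 4.66-fold lower.

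MHC class II genes, which B cells, dendritic cells and macrophages use to present antigen, were called lower in 3 of 10, with a median of -1.66 and all 10 negative. Of the 10, 2 had neither erythroid-rich array above 100. These were H2-Ob and Ciita, both among the genes called lower. H2-Aa was at 1539.5 and 1328 against 7486, 8359.5, 8318 and 2605, with the call in 1 of its 4 kept probe sets, and just under the threshold without replicate 1, 2, 3 or 5, at -1.93 to -1.98. H2-Ob, of the peptide-loading antagonist in B cells, was at 69.98 and 44.4 against 1086, 713, 1112 and 215. Ciita, the master regulator of the class, was at 49.7 and 71.4 against 694, 552, 403 and 81.9. In 9 of the 10 genes replicate 6 was the lowest of the 4, and in Cd74, the invariant chain, its 1629.9 lay between the 5617 and 924 of the erythroid-rich arrays.

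The plasma cell genes that define the tumor type differed less. Of 15, Mzb1, a chaperone of antibody assembly, was called lower, at 1247 and 283 against 2114, 2693, 3713 and 3511, but not without replicate 5 (-1.24), and the median was -0.52, or 0.15 without replicate 5. Jchain, which joins IgM and IgA units, was at 7721 and 1620.2 against 4933, 6796, 7843 and 2046. Xbp1, the gene of the transgene, was at 4979 and 1477 against 1748, 2541, 3631 and 1527. Sdc1 (CD138) was at 254 and 113 against 110.3, 152, 264 and 169, and Prdm1, the regulator of the plasma cell program, at 279.6 and 113 against 201, 229.9, 213 and 105. In all 4, replicate 4 was the higher of the 2 and the groups overlapped. Whether any probe set of Xbp1 reads the transgene is not stated in the sources used here. Of the 3 immunoglobulin constant genes named, none was called, and their median difference was 0.83 from the brightest probe sets but -0.42 from probe sets averaged per gene. Ighm was at 9589 and 9394 against 2208, 758, 7914 and 2611, a difference of 1.97 with no overlap, Igha at 2897 and 1805 against 3111, 11193, 1949.7 and 2570.1 and Ighg3 at 364 and 344 against 168, 127, 707 and 105. Igha stood out on replicate 2 and Ighm on replicate 3, so the other MM arrays differed among themselves in which heavy chain was high.

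T cell genes had a median difference of -1.07 over 24 kept of 31 listed, 10 of them with neither erythroid-rich array above 100, and 23 differences were negative, but only Cd5 and Il7r were called lower. Cd5 was at 41.2 and 41.6 against 185, 303, 312 and 125, and Il7r, the receptor for interleukin 7, at 223 and 134 against 408, 719, 1057 and 958. Both calls were marginal: Cd5 was at -1.95 without replicate 2 and -1.94 without replicate 3, and Il7r was at -1.93 without replicate 3, -1.73 without replicate 5 and -1.97 without replicate 6. Replicate 6 was the lowest of the 4 in 20 of the 24 genes. Cd3g was at 59.4 and 37.7 against 645, 877, 573 and 16.6 and Cd247 at 14.8 and 14.9 against 238, 291, 321 and 6.69, both with replicate 6 under the erythroid-rich arrays, as in Cd3d. None of 13 cytotoxic genes was called (median -1.19), with Ccl5 at 395 and 208 against 4012, 3296, 1540.0 and 85.1, Nkg7 at 423 and 224 against 1515, 1664, 817 and 117, Gzmk at 142 and 84.6 against 1269.6, 929, 436 and 75.0 and Gzmb at 409 and 479.6 against 598, 534, 295 and 944. Low values of the T cell receptor chains were thus shared by the 2 erythroid-rich arrays and replicate 6, and high values by replicates 1 to 3 and the Eμ-xbp-1s B cells (Cd3d 968 to 1496), while Gzmb was highest on replicate 6.

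**Figure D4:**
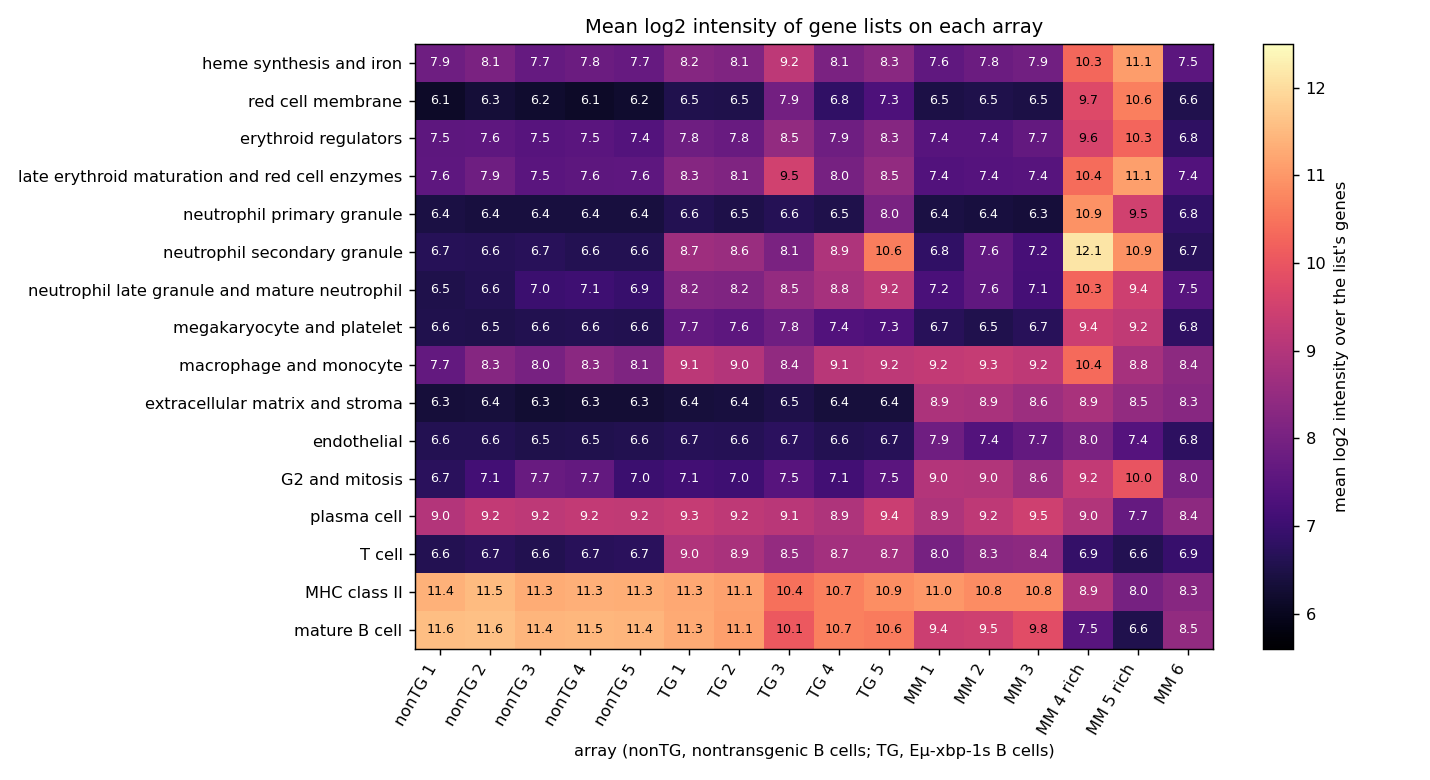
Mean over 16 gene lists of the log2 intensity on each of the 16 arrays, with brighter colours for higher values. The erythroid, neutrophil and platelet lists are brightest on MM replicates 4 and 5, stroma is near 8 or 9 on every MM array and under 7 on every B cell array, and MM replicate 6 shares low T cell and MHC class II values with the erythroid-rich arrays.

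Few stromal genes were called. Of 24 matrix genes 1 was called, the median was 0.17 (-0.073 without replicate 4), and both erythroid-rich arrays lay above all 10 B cell arrays in 19. Dcn, decorin, was the 1 called, at 216 and 105 against 3366, 2902, 2619 and 1467, and it was at 20.8 to 40.4 in nontransgenic B cells. Sparc, a matrix protein, was at 2186 and 1429 against 1353, 1187, 821 and 662 with no overlap, under the threshold at 0.87. Col3a1 was at 449 and 315 against 467, 877, 454 and 802. The 8 genes of lymph node and spleen stroma had a median of -1.14, with 6 negative. Of these, Mfge8, which follicular dendritic cells and macrophages secrete, was called lower at 562 and 326 against 4437, 4477, 4152 and 579, with replicate 6 just above replicate 4, and Coch, which follicular dendritic cells also make, was called higher at 1089.7 and 459 against 31.9, 58.8, 40.5 and 54.5. Coch was 1 of 2 genes of this list that passed the filter only with the help of the 2 erythroid-rich arrays. None of 18 endothelial genes was called (median 0.11), with Cdh5, the endothelial cadherin, at 514 and 441 against 359, 175, 223 and 29.4 and Plvap at 472 and 178 against 497, 487, 608 and 16.7. None of 11 bone and marrow niche genes was called (median -0.14, but 0.0071 with quantile normalization and 0.15 with median scaling). Cxcl12, the chemokine of marrow stroma, was at 1940.5 and 1237 against 2670.3, 1652, 1492 and 517, and Vcam1 at 4748 and 2081 against 2091, 2558, 2760.4 and 155. Of the liver, muscle and skin genes 3 were kept and none was called.

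Proliferation genes mostly stayed under the threshold, at a share called near that of all genes. Of 23 genes of G2 and mitosis, 22 differences were positive, the median was 0.97, and Ube2c, which feeds the ubiquitin ligase that ends mitosis, was the 1 called, at 2113 and 4039.9 against 769, 819, 543 and 341, and was at 1.85 without replicate 5. Mki67 was at 4629 and 6699 against 2164, 2509.6, 1669.5 and 451, a difference of 1.97 with no overlap. Of 25 replication genes none was called and the median was 0.68. Rrm2, the inducible subunit of ribonucleotide reductase, was at 4484 and 7882 against 1530.5, 1950.1, 1451 and 1269.8, and Pcna, the sliding clamp, at 4424 and 6392 against 3348, 3803, 2641 and 2467. In both lists replicate 5 was above replicate 4 almost throughout, in 22 of 23 and 23 of 25 genes, against 4638 of all 11318 genes kept. Replicate 6 was the lowest of the 4 in 20 and 18.

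A list of 17 kept genes from among those the study names for its transgenic B cells and MM had 3 called and a median of 0.61. It does not hold all genes named there, and the mitotic ones are in the list above. These genes were chosen by the study with these samples in hand, so their count is no independent evidence. Fos, a subunit of AP-1, was at 539 and 756 against 54.02, 72.1, 70.9 and 146, and Mmp8 and Cebpb were given above. Fos and Mmp8 were 2 of 3 genes of this list that passed the filter only with the help of the 2 erythroid-rich arrays. Ccnd1, cyclin D1, was at 168 and 121 against 602, 617, 363 and 585: lower on the erythroid-rich arrays without overlap, at -1.89, just short of the threshold. Maf was at 515 and 262 against 399.5, 719.9, 892 and 212, Il6st, the signalling chain of the interleukin 6 receptor, at 562 and 341 against 404, 533, 597 and 89.9, and Cebpd at 510.3 and 232 against 176, 239, 223 and 173. In Maf and Il6st the erythroid-rich arrays lay inside the range of the others. Tnfsf13b (BAFF) was at 125 and 121 against 159.7, 130.005, 184 and 161, a difference of -0.36, and Mcl1 and Bcl2 differed by 0.61 and -0.88.

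Of 15 interferon-stimulated genes, Rsad2 was called higher and Gbp2 lower, with a median of -1.03 and 13 negative. Rsad2, the antiviral enzyme viperin, was at 3302 and 5609 against 314, 305, 259 and 299 and at 3711 on Eμ-xbp-1s B cell replicate 3, the array with the most erythroid signal of its group. Gbp2, a guanylate-binding protein induced by interferon-γ, was at 189.8 and 108 against 1424, 1212, 878 and 332. Of 6 early B cell genes, Akap12, a kinase anchor protein, was called higher, at 1827 and 1339 against 81.2, 90.3, 64.3 and 257, and Cd93 was at 715 and 564 against 482, 225, 214 and 1045. Akap12 was the 1 gene of the 6 that passed the filter only with the help of the 2 arrays.

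Further lists were put together after the values were seen and support nothing. Of 22 immediate early and stress genes, 10 were called higher and none lower (median 1.69). Of the 22, 5 passed the filter only with the help of the 2 erythroid-rich arrays, and 2 of these were called higher. Dusp1, a phosphatase of MAP kinases, was at 4518 and 3477 against 197, 337, 240.4 and 413, Ppp1r15a (GADD34) at 2361 and 3794 against 177, 188, 237 and 121 and Mt2, a metallothionein, at 8726 and 4922 against 193, 214, 607 and 959.6. Junb and Egr1 did not follow, with differences of 0.63 and -0.61. Of 8 GIMAP genes, GTPases of lymphocytes, 7 were called lower (median -2.57), with Gimap4 at 597 and 217 against 3144, 3206, 3042 and 3228. Neither erythroid-rich array was above 100 in 2 of the 8. Of 8 genes of the immunoproteasome and class I loading, Psmb8 and Psmb9 were called lower (median -2.44), Psmb8 at 247 and 59.6 against 2399, 1895, 1689 and 413. Of 15 inflammatory chemokines, Cxcl2, which attracts neutrophils, was called higher at 540.1 and 825 against 14.2, 16.1, 11.7 and 31.2, and Cxcl9, which attracts T cells, lower at 126 and 31.8 against 3372, 2965, 1701 and 216 (median 0.014). Cxcl2 was 1 of 3 genes of this list that passed the filter only with the help of the 2 erythroid-rich arrays.

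The remaining genes of the largest downward differences belong to several functions. Sesn3, a stress-induced regulator of growth signalling, was at 46.4 and 20.9 against 985, 1349, 1138 and 213, and Ltb, lymphotoxin β, at 55.9 and 16.5 against 871, 843, 1283 and 147. Klhl6, of B cell receptor signalling in germinal centers, was at 213 and 122 against 3346, 2908, 1764 and 544. Pik3ap1, the B cell adaptor BCAP, was at 70.2 and 56.7 against 645, 1080.3, 625 and 448. These 4 genes had replicate 6 as the lowest of the 4 other MM arrays. Hmgn3, a nucleosome-binding protein, was at 90.3 and 39.7 against 969, 998, 982 and 280.2 and Lmo7 at 12.48 and 17.5 against 1041, 1117, 927 and 58.5, and both were lower in nontransgenic B cells (162 to 311 and 18.8 to 79.8) than on MM replicates 1 to 3. Ablim1 and Jakmip1 were 10.8-fold and at least 10.4-fold lower.

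The 2 erythroid-rich arrays were not copies of each other, and the lineages leaned opposite ways between them. Replicate 5 was above replicate 4 in 15 of 15 heme genes, 15 of 15 membrane genes, 12 of 13 erythroid regulators and 16 of 17 late erythroid genes, with median differences of replicate 5 minus replicate 4 of 0.83, 0.92, 0.87 and 0.77 on the log2 scale. In the neutrophil lists replicate 4 was the higher in 6 of 6 primary granule genes, 9 of 9 secondary granule genes and 15 of 16 late genes, with medians of -1.45, -1.28 and -0.80. Over all 11318 genes kept, replicate 5 was above in 4638 and replicate 4 in 6525, and the median was -0.09. Platelet genes lay between, at -0.21. Replicate 4 also had more macrophage and plasma cell signal, with medians of -1.57 and -1.31 (C1qa 5420.1 and 624, Jchain 7721 and 1620.2), and more of the mature B cell genes, at -0.68. With 1 array each, these differences have no replicate check.

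**Figure D5:**
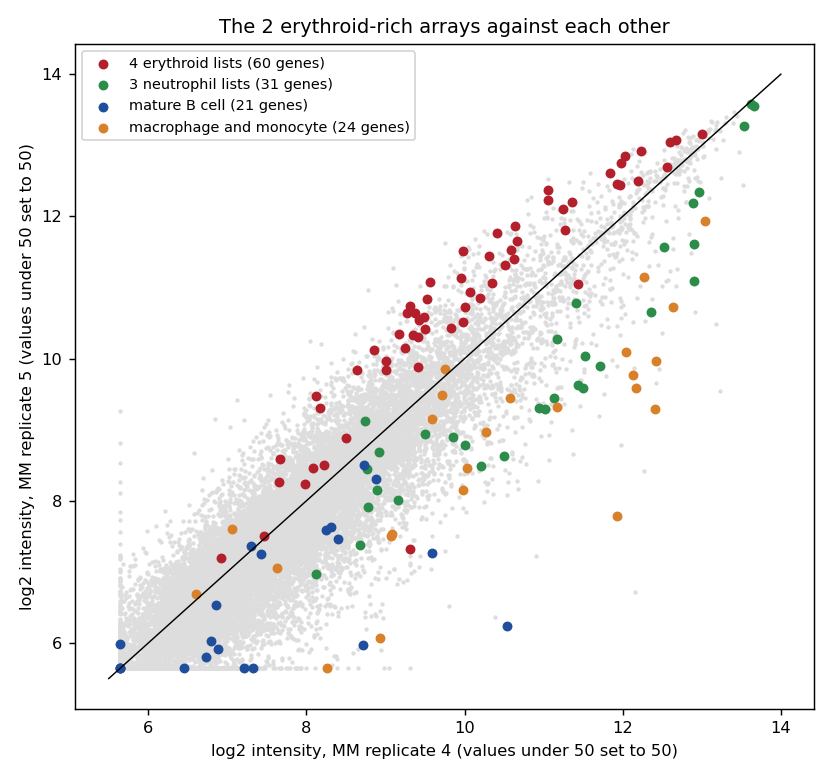
Log2 intensity on MM replicate 4 (horizontal) against replicate 5 (vertical) for the 22151 probe sets kept (grey) and the genes of the erythroid, neutrophil, mature B cell and macrophage lists (coloured), with the line of equal values. Nearly all erythroid genes lie above the line and nearly all neutrophil genes below it, at medians of 0.77 to 0.92 and -0.80 to -1.45.

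Replicate 6 limits what the 4 other MM arrays stand for. Vpreb1, part of the surrogate light chain of B cell precursors, was at 4505 there and at most 62.0 on any other MM array, and Rag1, the recombinase of precursor lymphocytes, was at 413 there and at or under 9.78 elsewhere. Both genes were above 100 on 1 array only and did not enter the comparison, and both were chosen for mention after their values were seen. Igll1 and Vpreb3 were at 592 and 1669 on replicate 6, the highest of the 6. Without replicate 6 the median difference was 2.54 for heme genes, 3.59 for the red cell membrane and 5.08 for secondary granule genes, against 2.92, 3.58 and 5.08 with it. For MHC class II, mature B cell and T cell genes it was -2.61, -2.66 and -1.34 without replicate 6, against -1.66, -2.22 and -1.07 with it.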

How the data were processed

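RNA of B220-positive B cells and of MM tumors had been hybridised to Affymetrix 430 2.0 arrays. With dChip the authors brought all arrays to the one whose intensity was the median, and deposited 1 model-based intensity (perfect match minus mismatch) per probe set, on a linear scale with a lowest value of 1. The annotation gives 1 gene for 34958 of 45101 probe sets, several for 932 (not named here) and none for 9211. The 64 controls were left out, which left 45037. Groups and replicate numbers are those of the sample titles, and the MM arrays were divided on Alas2. The members and lists were chosen with earlier results of these data known.

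Values under 50 were set to 50, probe sets above 100 on at least 2 of the 6 MM arrays were kept, and differences were taken on the log2 scale with no test. Of 33 called list genes with more than 1 kept probe set, all kept probe sets had the call in 18. The genes described are the 3 markers, the 15 largest differences in each direction among called genes (immunoglobulin segments excepted), up to 8 called members of each of 30 lists by size or the 4 brightest where none was called, the genes the study names, and others whose values the text gives beside them, chosen after their values were seen. A further 4 lists were added after the values were seen. Promoters are from RefSeq (GRCm38.p6). A run on simulated arrays with planted differences above the threshold and no floor checks only how the call is computed. Scripts ran in Python 3.11.15 with numpy 2.4.6, pandas 2.3.3 and, for plots, matplotlib 3.10.9. As alternatives, the floor was 16 or 100 or gave way to a pseudocount of 50, arrays were quantile normalized or scaled to 1 median, filters and thresholds were varied, probe sets were averaged per gene, and each MM array was left out with the probe sets kept as before. Depth does not apply to arrays, and their number limits the precision.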

Additional observations from a re-analysis of the deposited data

Results flagged for a closer look

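In 99 sets of values (30 lists and 3 markers in each of the 4 other MM arrays, the 5 Eμ-xbp-1s and the 5 nontransgenic B cell arrays), 17 had 1 array far from the rest, judged by the gap to its neighbour over the whole range. Chance flags about 1 in 20. Of the 17, 4 fell on MM replicate 6, which was far below the other 3 in the mean of macrophage (gap ratio 0.887), dendritic cell (0.912) and MHC class II genes (0.940) and in Cd3d (0.851). MM replicate 3 stood apart in Alas2 (1.00, with the other 3 at the floor of 50), where it was the highest, and in S100a8 (0.968), where it was the lowest.

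Eμ-xbp-1s B cell replicate 3 stood apart 5 times. It was the highest in heme genes (0.776), Alas2 (0.789) and matrix genes (0.752), and the lowest in macrophage genes (0.790). It was also the lowest in the mean of the brightest globin probe sets (0.782). No direction is read from these, because the probe sets of Hbb-b2 disagree on the MM arrays. Replicate 5 of that group was the highest in primary granule genes (0.915) and in cytotoxic genes (0.759), and replicate 4 was the lowest in immunoglobulin constant genes (0.788). Nontransgenic replicate 2 was the highest in late erythroid genes (0.796) and in Alas2 (1.00, with the other 4 at the floor), and replicate 4 was the highest in myeloid transcription factors (0.782).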

How the results depend on the processing

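No paired analysis was possible because no test was made and the MM arrays were divided by their own values. Under some alternative 25 list medians, of 11 of the 30 lists and none over 0.83 in size, changed sign. Of the named genes 103 were called, so that their groups do not overlap and the settings could hardly turn their sign. Counts of probe sets depended most on the size required: 1461 higher and 1258 lower at a difference of at least 1, 189 and 39 at 3, and 236 and 29 when the nearest arrays had to be 4-fold apart. The count lower was 295 with a floor of 16, 105 with a floor of 100 and 100 with a pseudocount of 50. Median scaling moved the median of all probe sets by 0.17 and quantile normalization by 0.12 on the log2 scale, and the share of calls that were higher went from 72.9% to 81.0% and 76.9%. This share was 59.1% without replicate 4, 53.7% at a difference of at least 1 and 46.1% without replicate 6, where most calls were lower.

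List medians moved by more than the spread between arrays in these settings. With a floor of 100 they were 3.01 for the red cell membrane (4.21 with a floor of 16), 3.00 for late erythroid genes, 1.77 for late neutrophil genes and 2.28 for platelets. With a pseudocount of 50 they were 3.16, 3.10, 1.92 and 2.14, and 3.48 for primary granules. With the mean of probe sets heme was 2.43 and late erythroid genes 3.51, with no filter late neutrophil genes were 1.71, and platelets were 2.90 with quantile normalization and 2.84 with median scaling. With 1 array left out, 457 to 608 probe sets were higher and 145 to 562 lower. The medians then ran from 2.33 to 3.51 for heme, 2.98 to 4.18 for membrane, 2.22 to 3.57 for regulators, 3.36 to 4.04 for late erythroid, 3.27 to 4.71 for primary, 4.63 to 5.52 for secondary and 1.69 to 2.61 for late neutrophil genes, 2.51 to 2.71 for platelets, -1.34 to -0.91 for T cells, -2.66 to -1.70 for mature B cells and -2.61 to -1.34 for MHC class II. Of 103 called genes named here, 13 fell under the threshold when some array was left out.

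The 2 arrays were chosen on their own values, so their spread is no error of a population, and the values of low probe sets are set by the floor.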
